A study of Mus musculus with 26 samples.

Results

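Genes of the formative and primed states of pluripotency were followed through a comparison of mouse embryonic stem cells kept in leukemia inhibitory factor (LIF) and cells treated with retinoic acid (RA) for 4 h. The 9 genes are Otx2, Pou3f1, Dnmt3a, Dnmt3b, Dnmt3l, Zic2, Sox3, Sox4 and Sox11. They were chosen by name from 21938 annotated protein-coding genes, with earlier results of these data known, and no threshold on a measured value was used. Of the 9 genes, 7 are among the 2189 genes of the deposited RNA-seq table. The 100 kb on either side of the 9 gene bodies hold 255 of 163484 ATAC-seq peaks of the LIF state, 222 of 141465 ATAC-seq peaks of the RA state and 3 of 327 regions called as dynamic enhancers.

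The cells were E14, an established line of mouse embryonic stem cells, grown without feeder cells in medium with serum and LIF for 48 h. For the last 4 h they received fresh medium with either LIF (mESC+) or, after LIF was withdrawn, 1 µM RA (mESC-). The RA state thus differs from the LIF state in the addition of RA and in the loss of LIF, and their parts in any difference cannot be told apart. RNA-seq had 3 libraries per state. ATAC-seq, which marks accessible chromatin, had 1 library per state, and the enhancer regions rest on 1 library per state for each of H3K4me1, H3K4me3, H3K27ac and input. No difference in accessibility or enhancer probability given here therefore has a replicate check, and none was tested.

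Embryonic stem cells in LIF are close to the naive epiblast of the early embryo. On the way to lineage commitment they pass through a formative and then a primed state, in which naive transcription factors are shut down and a second set is switched on. Otx2, a homeodomain factor, and Pou3f1, a POU factor also called Oct6, direct this step, and Zic2 and Sox3 act in the epiblast and the early neural plate. Sox4 and Sox11 are SoxC factors of progenitor cells. Dnmt3a and Dnmt3b are the de novo DNA methyltransferases and Dnmt3l is their catalytically inactive partner, which together methylate the genome during this transition. RA acts through nuclear receptor dimers that bind direct repeats of a short core sequence. The question set here was whether 4 h of RA without LIF starts or blocks the formative programme.

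Marker genes of the labelled cell type and of 2 other cell types were looked up. All 6 stem cell markers (Pou5f1, Sox2, Nanog, Zfp42, Esrrb and Klf4) had a promoter peak in both ATAC-seq lists, and 3 of them (Sox2, Zfp42 and Klf4) were in the RNA-seq table, where Zfp42 had a mean normalized count of 9813 per kb of exon. Of the fibroblast markers, Col3a1 had no promoter peak in either list, Col1a1, Col1a2 and Thy1 had one in both, and only Thy1 was in the RNA-seq table, at 58.5 per kb. Of the primitive endoderm markers, Gata6 and Sox7 were in the table at 14.8 and 22.4 per kb, and all 4 (Gata6, Gata4, Sox17 and Sox7) had a promoter peak in both lists. Of all 21938 protein-coding genes, 15136 had a promoter peak in both lists, so such a peak does not identify the cell type. The Nanog promoter peak was weak, stronger than 12.7% of the mESC+ peaks and 13.3% of the mESC- peaks.

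All 3 Dnmt3 genes were in the RNA-seq table, together with Zic2, Otx2, Sox11 and Sox3. Pou3f1 and Sox4 were not listed. The table was restricted by the authors' adjusted p-value, so a gene that is not listed may still be expressed, and the share of all annotated protein-coding genes that is listed is 9.04%. The listing says that a gene passed the comparison of the 2 states made by the authors. It is part of how these genes were looked up, and nothing is read from it. The size and direction of each change stand only in the columns of that comparison, which were not used, so no statement on whether a transcript went up or down in RA is made. The value used is the mean normalized count over the 6 libraries of both states, which has no error because the table holds no value per library. In a bulk culture, fewer cells expressing a gene and less RNA per cell cannot be told apart.

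Dnmt3l and Dnmt3b transcripts were at the top of the listed genes. Dnmt3l had a mean of 17415 normalized counts, or 6522 per kb of exon, which is above 99.5% of the listed protein-coding genes. Dnmt3b had 18009 normalized counts, or 4163 per kb, above 98.5% of them. Dnmt3a followed at 6838 normalized counts and 595 per kb, above 77.2%. The order of the enzyme genes by level per length was thus the inactive partner first and Dnmt3a last, with 10.95 times more per kb for Dnmt3l than for Dnmt3a. The exon length of Dnmt3a, at 11484 bp, joins the exons of all its annotated transcripts, which lowers its value per kb if the cells use a short form.

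The transcription factor genes were lower. Zic2, a zinc-finger factor, had 1093 normalized counts and 448 per kb, above 71.8% of the listed genes. Otx2 had 435 normalized counts and 128 per kb, above 42.9%, and Sox11 had 895 normalized counts and 108 per kb, above 39.2%. Sox3 was the lowest at 124 normalized counts and 60.1 per kb, above 27.2%. The median of the listed genes was 174 per kb. Without values per library it cannot be said which neighbours in this order, such as Otx2 and Sox11, differ beyond their spread.

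**Figure D1:**
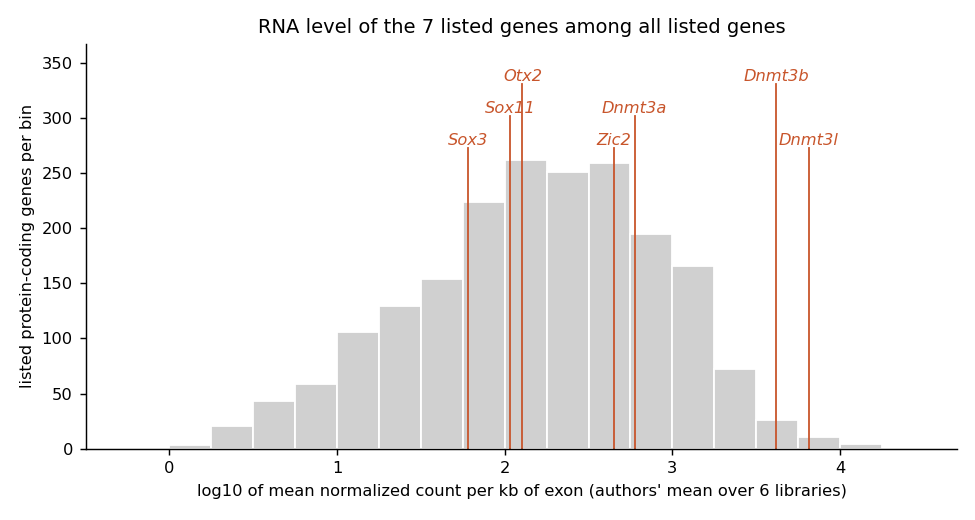
Histogram of the log10 of the mean normalized count per kb of exon over the listed protein-coding genes (grey bars, genes per bin), with the 7 listed formative and primed genes as orange lines. Dnmt3b and Dnmt3l stand at the right end, Zic2 and Dnmt3a right of the median of 174 per kb, and Otx2, Sox11 and Sox3 left of it.

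The number of ATAC-seq peaks around the 9 genes was lower in mESC- than in mESC+ for most genes, as it was genome-wide. There were 255 peaks in mESC+ and 222 in mESC-. Of the mESC+ peaks, 65 (25.5%, exact binomial 95% interval 20.3 to 31.3) overlapped no mESC- peak by at least 1 bp, against 26.1% over the whole list. Of the mESC- peaks, 28 (12.6%, 8.55 to 17.7) overlapped no mESC+ peak, against 14.1% over the whole list. At this overlap both shares are near their background, so neither an opening nor a closing of chromatin particular to these genes is read from them. Where an overlap of at least 50% of each peak was required, the shares were 40.8% and 32.0%, both above the 35.0% and 24.9% of the whole lists. The intervals cover counting error over peaks only, and neighbouring peaks are not independent.

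Sox11 had the lowest ratio of the 9 genes. Its window held 10 peaks in mESC+ and 5 in mESC-, a ratio of 0.5, while 1.22% of the protein-coding genes had a lower ratio and 2.43% one of 0.5 or lower. The median ratio over the genes was 0.875. These are small numbers, and 6 of the 10 mESC+ peaks had no counterpart. Otx2 had 14 peaks in mESC+ and 11 in mESC-, Pou3f1 33 and 28, Sox4 27 and 25, and Sox3 12 in each list. Zic2 was the only one of the 9 with more peaks in mESC- (30) than in mESC+ (29). The Dnmt3 windows held 49 and 42 peaks for Dnmt3a, 44 and 37 for Dnmt3b, and 37 and 32 for Dnmt3l. The windows differ in length, and per 100 kb Dnmt3b had the most in both lists (18.5 and 15.5), while Pou3f1 (16.2 and 13.7) stood just above Dnmt3a (15.9 and 13.6). Only 2 of the 37 mESC- peaks near Dnmt3b were absent from mESC+.

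**Figure D2:**
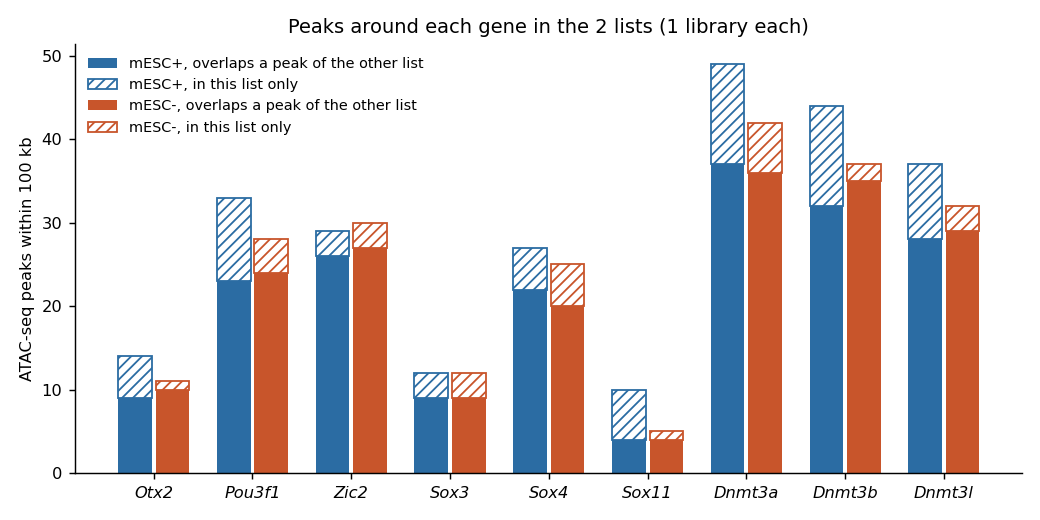
ATAC-seq peaks within 100 kb of each of the 9 genes in mESC+ (blue) and mESC- (orange), 1 library each. Filled bars count peaks that overlap a peak of the other list and hatched bars count peaks of that list only, which are most frequent among the mESC+ peaks of Sox11 (6 of 10).

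The strength of a peak is given as its fold enrichment over the local background and as its percentile, the share of peaks of the same list with a lower fold enrichment. Each list was called on its own library, so states are compared by percentile and not by the enrichment itself. The peaks found in 1 list only were mostly weak ones. None reached the 75th percentile of its list. The strongest was a mESC+ peak 47.0 kb upstream of Sox11 (chr12:27389566-27389767, outside annotated genes) with a fold enrichment of 9.55 at percentile 74.4. The strongest mESC- peaks without a counterpart, both at percentile 56.3, lay in an intron of Efr3b 83.4 kb downstream of a Dnmt3a start (chr12:3990175-3990306) and 20.0 kb upstream of Sox4 (chr13:28973672-28973792).

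Merging overlapping peaks of both lists gave 275 loci, of which 182 were shared. For the shared loci, the median difference in percentile (mESC- minus mESC+) was -3.06 points, against -2.49 over all 117520 shared loci. A percentile at least 30 points higher in mESC- was found at 2 of the 182 loci, against 2.96% of all shared loci. Ranked by −log10 p it was 5, against 3.16% of all. A percentile at least 30 points lower in mESC- was found at 13, against 7% of all shared loci. By −log10 p this count was 18, against 7.93% of all. By fold enrichment, 5 of the 13 loci were among the 20 shared loci of Sox4 and 3 among the 35 of Dnmt3a. For 137 of the 275 loci the nearest annotated start was that of the member itself, and this held for every locus of Otx2, Sox3, Sox4 and Sox11, which have no other protein-coding gene in their windows. Of the 137 loci, 31 (22.6%) were in mESC+ only, 12 (8.76%) in mESC- only and 94 (68.6%) shared, against 23.7%, 11.05% and 65.3% of the 180036 loci genome-wide.

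**Figure D3:**
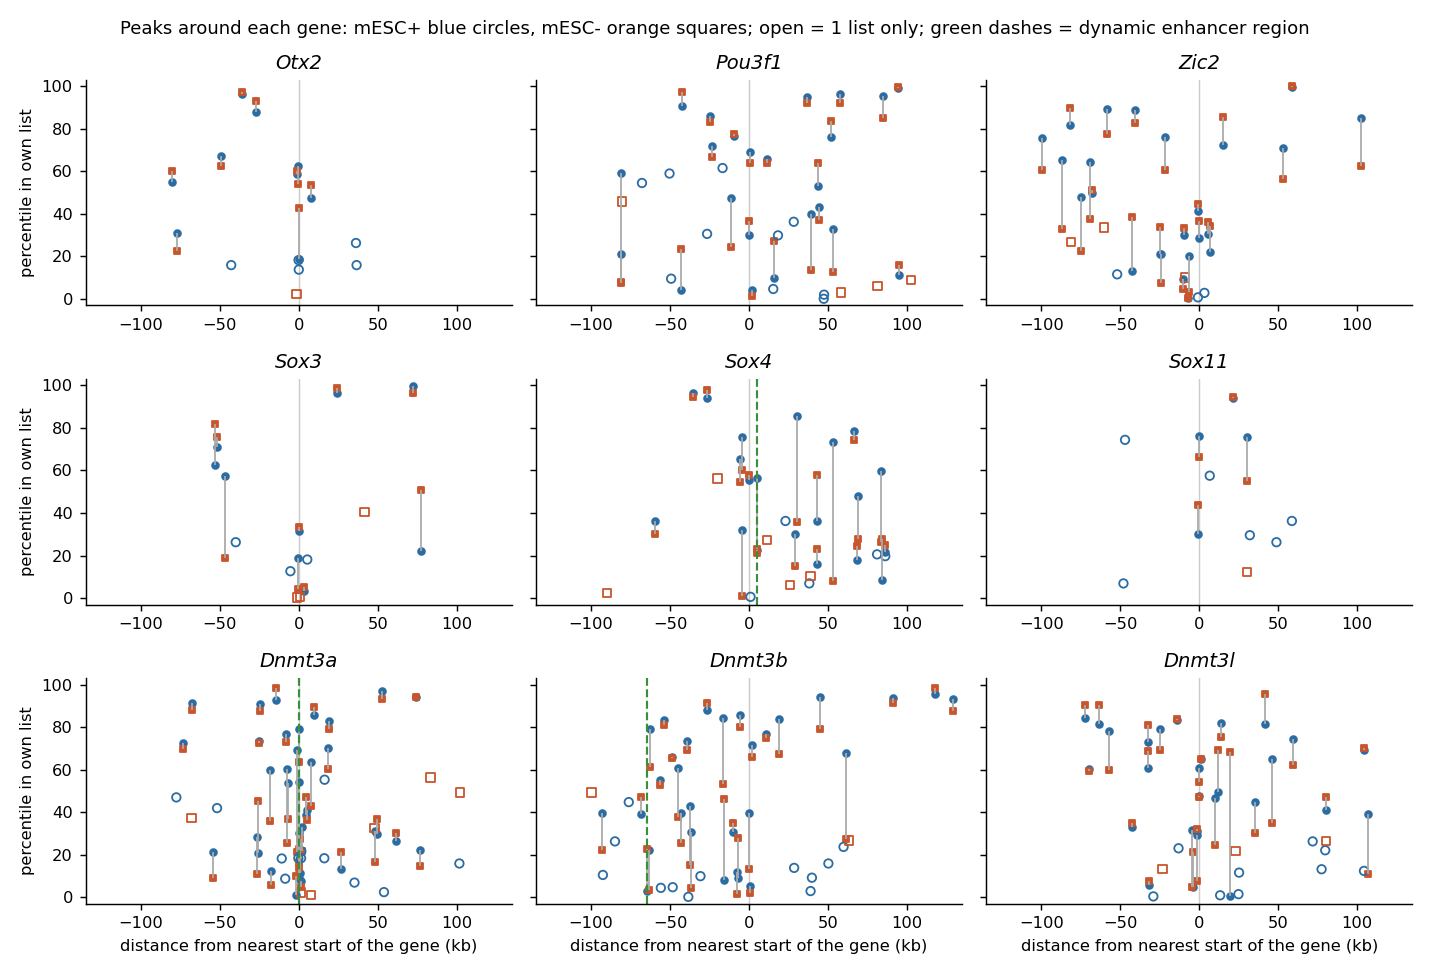
Percentile of each ATAC-seq locus within its own list against its distance in kb from the nearest annotated start of the gene (negative is upstream), for mESC+ (blue circles) and mESC- (orange squares). Grey lines join the 2 states of a shared locus, open symbols are peaks of 1 list only, and green dashed lines are the 3 dynamic enhancer regions, near Sox4, Dnmt3a and Dnmt3b.

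**Figure D4:**
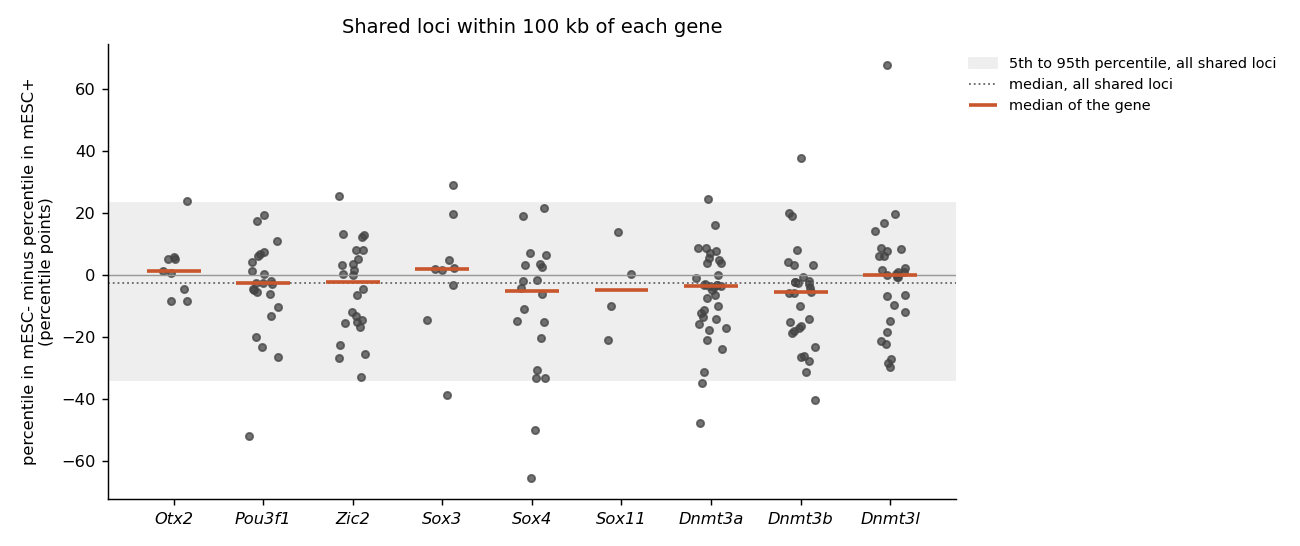
Difference in percentile (mESC- minus mESC+, in percentile points) of every shared locus within 100 kb of each gene. The orange bar is the median of the gene, the grey band the 5th to 95th percentile over all 117520 shared loci (-33.7 to 23.3), and the locus at 67.7 near Dnmt3l and that at -65.4 near Sox4 lie farthest outside it.

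All 9 genes had at least 1 promoter peak, within 1 kb of an annotated start, in both states. So did 15136 of all 21938 protein-coding genes, so nothing particular to the 9 genes is read from this. The strongest promoter peak ranked higher in mESC- for 4 genes (Dnmt3l, Zic2, Sox3 and Sox4) and lower for 5 (Otx2, Pou3f1, Dnmt3a, Dnmt3b and Sox11). The Dnmt3l peak, which spans the start of Aire, was nearly equal in the 2 states, at percentiles 64.9 and 65.0. By the −log10 p of the peaks chosen by fold enrichment, Otx2 (55.0 in mESC+ and 63.6 in mESC-) and Dnmt3l (82.8 and 77.3) change sides. The other 7 genes keep theirs. The promoter peaks strongest by −log10 p itself stood at 62.5 and 63.6 for Otx2, at the same locus. For Dnmt3l they stood at 85.0 and 77.3, but these are peaks at different loci. The mESC- counterpart of the Dnmt3l peak at 85.0 stood at 72.7. The median difference was -2.27 percentile points, against -0.48 over the 15136 protein-coding genes with a promoter peak in both states, 5% of which lay below -20.0 and 5% above 12.9. By the −log10 p of the peaks chosen by fold enrichment the medians were -5.54 and -0.675. By fold enrichment, only Dnmt3b lay outside the range from -20.0 to 12.9. The promoters of these genes were weaker than the median promoter, which stood at percentile 80.7 in mESC+ and 79.9 in mESC-, and all 9 lay below it in both states. The median promoter of the other lists described here was below it too, for example at 51.6 in mESC+ and 53.5 in mESC- over 18 further formative and primed genes and at 56.4 and 58.1 over 12 naive genes.

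**Figure D5:**
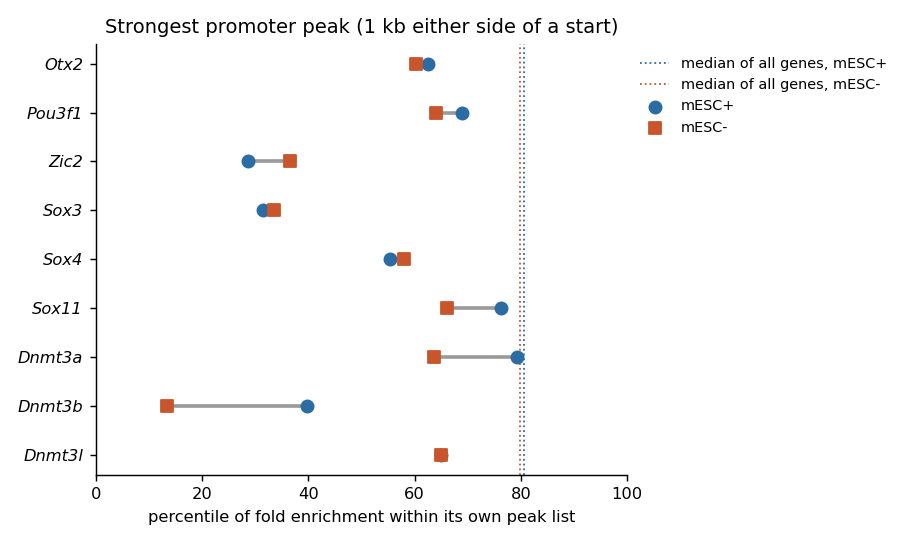
Percentile of the strongest promoter peak of each gene within its own list, in mESC+ (blue circles) and mESC- (orange squares), with the medians of all genes as dotted lines. Dnmt3b has the widest gap, from 39.7 in mESC+ to 13.5 in mESC-, and Zic2 the widest in the other direction, from 28.6 to 36.5.

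Otx2 (chr14:48657677-48673819, minus strand) had its strongest accessible sites in both states. The first, 35.7 kb upstream in the non-coding gene Otx2os1, had a fold enrichment of 16.6 in mESC+ and 16.3 in mESC-, which are percentiles 96.4 and 97.1. A second locus 27.1 kb upstream stood at percentiles 87.8 and 93.1. At the promoters the strongest peak was at percentile 62.6 in mESC+ and 60.3 in mESC-, but these are peaks at different starts of the gene. The largest difference was at an exonic locus at an internal start (chr14:48664882-48665089), with percentile 18.9 in mESC+ and 42.8 in mESC-. The largest toward mESC+ was 77.3 kb upstream, at 31.2 and 22.7. No shared locus of Otx2 differed by 30 points in either direction, and the 6 peaks of 1 list only lay at or below percentile 26.3.

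Pou3f1 (chr4:124656807-124660655, plus strand), which is not listed in the RNA-seq table, had a promoter peak at percentile 68.9 in mESC+ and 64.1 in mESC-. Its strongest locus, in both lists, lay 94.4 kb downstream in an exon of Inpp5b, at percentiles 99.3 and 99.8. Only 9 of its 37 loci have the Pou3f1 start as their nearest. The largest difference was 81.4 kb upstream, in the antisense gene Gm2164, with percentile 59.4 in mESC+ and 7.60 in mESC-. The largest toward mESC- was 42.9 kb upstream, at 4.27 and 23.6. The strongest mESC+ peak without a counterpart was 16.7 kb upstream (chr4:124639827-124640080), at percentile 61.5.

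Zic2 (chr14:122475435-122479852, plus strand) had the largest promoter difference toward mESC- of the 9 genes, while its largest difference at any locus was toward mESC+. The peak spanned 347 bp with a fold enrichment of 5.06 in mESC+ and 688 bp with 5.75 in mESC-, which are percentiles 28.6 and 36.5. A locus 86.6 kb upstream, in an intron of Clybl (chr14:122388640-122388835), stood at percentile 65.4 in mESC+ and 32.7 in mESC-, and one 42.7 kb upstream at 13.0 and 38.4. The median difference over its 24 shared loci was -2.29 points. Its strongest locus, at the Pcca start 58.5 kb downstream, was at 99.7 and 99.9. The 3 peaks of mESC+ only were weak, at or below percentile 11.6, and the strongest of mESC- only was at 33.7. The 101 bases around the mESC- promoter summit, upstream of the annotated start, are shown with CpG dinucleotides, the substrate of the methyltransferases, in capitals. They hold 13 CpGs.

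Zic2 promoter summit, GRCm38 chr14:122475154-122475254, plus strand: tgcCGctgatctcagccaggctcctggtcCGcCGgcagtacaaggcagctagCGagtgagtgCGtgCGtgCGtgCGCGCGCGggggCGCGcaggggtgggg

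Sox3 (chrX:60891366-60893430, minus strand) had near equal promoter peaks, at percentile 31.5 in mESC+ and 33.5 in mESC-. Its strongest loci lay 72.3 kb downstream, at percentiles 99.5 and 96.4, and 24.5 kb downstream, at 96.6 and 98.7. The largest difference was 46.9 kb upstream, outside annotated genes (chrX:60940355-60940549), with percentile 57.5 in mESC+ and 18.9 in mESC-. A locus 77.2 kb downstream went the other way, at 22.1 and 51.0. Between its strongest loci, 41.6 kb downstream of the start, was the strongest of its 3 mESC- peaks without a counterpart (chrX:60851497-60851870), with a fold enrichment of 5.93 at percentile 40.5. Its sequence is given with the receptor motifs.

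Sox4 (chr13:28948919-28953713, minus strand) had a promoter peak at percentile 55.3 in mESC+ and 57.9 in mESC-, while 5 of its 20 shared loci ranked at least 30 points lower in mESC-. The locus with the largest difference of all 182 toward mESC+ was 53.2 kb downstream of its start (chr13:28900271-28900529), with a fold enrichment of 9.41 at percentile 73.3 in mESC+ and 4.11 at 7.87 in mESC-. A second, 30.3 kb downstream (chr13:28923163-28923453), stood at 85.6 and 35.7. The others lay 83.4 kb and 4.93 kb downstream and 4.48 kb upstream. Its strongest loci, 35.1 kb and 26.9 kb upstream, were at percentiles 96.4 and 94.1 in mESC+ and 94.5 and 97.8 in mESC-. The largest difference toward mESC- was 43.3 kb downstream, at 36.3 and 58.0. The 101 bases around the mESC+ summit of the locus with the largest difference contain none of the motifs searched.

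Sox4 downstream locus, GRCm38 chr13:28900317-28900417, plus strand: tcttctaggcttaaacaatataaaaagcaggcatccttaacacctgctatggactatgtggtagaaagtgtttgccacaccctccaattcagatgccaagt

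Sox11 (chr12:27334264-27342574, minus strand) had its strongest locus 21.4 kb downstream of the start, at percentile 94.0 in mESC+ and 94.3 in mESC-. Its strongest promoter peak was at percentile 76.2 in mESC+ and 66.2 in mESC-, and a second promoter peak 730 bp upstream was at 30.1 and 43.9. The largest difference was 30.3 kb downstream, at 75.8 and 55.0. Of the 6 peaks in mESC+ only, 1 lay in the Sox11 exon, at percentile 57.5, and the others were outside annotated genes.

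Dnmt3a (chr12:3806007-3914443, plus strand) has many starts, and loci at several of them ranked lower in mESC- while others ranked higher. The strongest promoter peak, over a start near the 5′ end of the gene, had a fold enrichment of 10.5 in mESC+ and 7.74 in mESC-, at percentiles 79.2 and 63.6. A locus 951 bp upstream of a later start, in an exon (chr12:3905554-3905865), stood at percentiles 69.1 and 21.5. An intronic locus 56 bp upstream of another start (chr12:3891378-3891672) stood at 54.1 and 22.8, or 76.5 and 58.9 by −log10 p. The exonic locus beside it, 45 bp past a start (chr12:3891789-3891980), ranked higher in mESC-, at 9.02 and 13.8. So did an intronic locus 887 bp past a start (chr12:3808047-3808444), at 11.4 and 27.5. The strongest mESC- locus of the window, 14.4 kb upstream and outside annotated genes, also ranked higher, with percentile 92.6 in mESC+ and 98.3 in mESC-. So did a locus 25.8 kb upstream in an intron of Dtnb, at 20.9 and 45.2. The strongest mESC+ locus lay in an exon of Pomc, 52.9 kb downstream, at 96.8 and 93.1.

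Dnmt3b (chr2:153649450-153687730, plus strand) showed the largest promoter difference of the 9 genes. The peak over its start was 355 bp wide with a fold enrichment of 5.78 in mESC+, at percentile 39.7. In mESC- the signal was called as 2 peaks of 141 and 125 bp over the same stretch, and the stronger had a fold enrichment of 4.46 at percentile 13.5. By −log10 p the percentiles were 56.7 and 25.7. A locus in an intron of the neighbouring Dnmt3c, 61.2 kb downstream, stood at percentiles 67.7 and 27.4. A locus 15.9 kb upstream (chr2:153633392-153633558), nearest to Commd7, went the other way, from 8.29 to 46.1. The strongest locus of the window, in an exon of Mapre1, was at 95.4 in mESC+ and 98.5 in mESC-. The stretch at the mESC+ promoter summit, up to the first annotated start in either GENCODE or RefSeq, is shown with its 11 CpGs in capitals.

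Dnmt3b promoter summit, GRCm38 chr2:153649332-153649410, plus strand: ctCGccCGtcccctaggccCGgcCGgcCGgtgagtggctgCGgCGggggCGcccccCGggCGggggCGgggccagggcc

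Dnmt3l (chr10:78041947-78063622, plus strand) had a strongest promoter peak of almost the same rank, at percentile 64.9 in mESC+ and 65.0 in mESC-. That peak lies in a Dnmt3l intron and spans the start of Aire, its nearest start. Peaks directly over Dnmt3l starts ranked lower in mESC-, at 60.7 and 54.3 and at 47.6 and 46.9. The locus with the largest difference of all 182 toward mESC- was 19.6 kb downstream of the last Dnmt3l start, in an intron of Icosl (chr10:78074976-78075162). Its fold enrichment was 3.08 in mESC+, at percentile 0.667, and 8.31 in mESC-, at percentile 68.4. The nearest start was that of Icosl, 3815 bp away. The largest difference toward mESC+ was 45.8 kb downstream, at percentiles 64.8 and 35.1. The strongest mESC+ locus, at the Trpm2 start, was at 84.2 and 90.3, and the strongest mESC- locus, 41.4 kb downstream, at 81.4 and 95.7. The 101 bases around the mESC- summit of the locus in the Icosl intron contain receptor cores in direct repeat, in capitals. These cores are spaced by 2 bases on the minus strand, and 1 pair matches exactly and 1 with 1 mismatch. This locus was chosen for its difference and searched afterwards. Over all mESC- peaks, 8.93% of the 300 bp windows around the summits held a repeat at any of the spacings searched. An exact repeat was in 1.24% of them. These windows are longer than the 101 bases shown here, and a link between the repeats and the difference at this locus was not tested.

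Dnmt3l downstream locus, GRCm38 chr10:78075022-78075122, plus strand: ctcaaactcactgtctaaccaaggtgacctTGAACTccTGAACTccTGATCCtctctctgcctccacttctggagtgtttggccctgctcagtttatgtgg

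Dynamic enhancer regions, which the authors called from an enhancer probability between 0 and 1 computed on histone marks in each state, lay within 100 kb of 3 of the 9 genes. Over all protein-coding genes the share with such a region was 4.54%. Of the 3 regions, 2 had the higher probability in mESC- and 1 in mESC+, beside 141 (43.1%) and 186 of all 327. Otx2, Pou3f1, Zic2, Sox3, Sox11 and Dnmt3l had none. The regions are listed because the authors found them to differ, so the probabilities are a description.

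The region near Dnmt3b (chr2:153579601-153584600) is 5000 bp long, lies 64.9 kb upstream of the gene outside annotated genes, and has its nearest start at Commd7. The deposited probability is 1 for mESC- against 0.0075 for mESC+. The ATAC-seq peak in it had a fold enrichment of 5.69 at percentile 39.0 in mESC+ and 6.46 at 47.1 in mESC-. By −log10 p these percentiles were 40.3 and 65.4. A second mESC- peak, at the edge of the region, was at percentile 22.9. It overlapped a mESC+ peak at percentile 3.03, which lay outside the region. The region with higher probability in mESC- thus held a locus that was already accessible in mESC+. Over its whole length the region held 4 receptor direct repeats, or 0.8 per kb, against 0.507 per kb over all 327 dynamic regions. Of the 4 repeats, 2 were exact, and exact repeats stood at 0.0964 per kb over all regions. Of the 327 regions, 50.8% held a repeat and 17.4% an exact one. The repeats are searched as set out with the receptor motifs, and none was found in the regions near Sox4 and Dnmt3a. Around the mESC- summit, a match to the OTX element (GGATTA on this strand) and a match to the SOX element (ACAAAG on this strand) are in capitals.

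Dnmt3b upstream region, GRCm38 chr2:153580676-153580776, plus strand: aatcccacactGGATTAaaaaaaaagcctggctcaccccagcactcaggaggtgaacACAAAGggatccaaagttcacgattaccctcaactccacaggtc

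The region near Sox4 (chr13:28946701-28948800) begins 119 bp beyond the 3′ end of the gene, inside the non-coding gene Gm26735, and is 2100 bp long. Its probability was 0.96 in mESC+ and 0.14 in mESC-. It held 2 peaks in each list. The stronger, 4.93 kb from the Sox4 start, was at percentile 56.3 in mESC+ and 23.3 in mESC-, and the weaker at 22.8 and 21.4. Probability and accessibility were both lower in mESC- here. A match to the SOX element around the mESC+ summit is in capitals.

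Sox4 3′ region, GRCm38 chr13:28948624-28948724, plus strand: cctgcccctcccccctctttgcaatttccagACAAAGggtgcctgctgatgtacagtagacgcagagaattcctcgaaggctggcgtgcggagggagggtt

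The region in an intron of Dnmt3a (chr12:3885801-3886300) is 500 bp long, 352 bp past an annotated start, and its probability was also higher in mESC-, at 0.921 against 0.093 in mESC+. No ATAC-seq peak of either list overlapped it. The nearest promoter peaks, at the adjoining start, were at percentile 30.1 in mESC+ and 16.7 in mESC-. By −log10 p they were nearly equal, at 52.9 and 51.7.

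Receptor direct repeats were searched in 300 bp around each summit, on both strands, as 2 cores spaced by 1, 2 or 5 bases, with at most 1 mismatch in the pair. A core was written as AGGTCA, with AGTTCA as its first variant, the word GGGTCA as another and GGTTCA as the last. A match is a description of the sequence and not a measured binding site. Near the 9 genes, 17 of 255 mESC+ windows (6.67%) and 22 of 222 mESC- windows (9.91%) held a repeat, against 7.99% and 8.93% over all peaks of the lists. Among peaks of 1 list only, a repeat was found in 4 of 65 mESC+ windows (6.15%, exact 95% interval 1.70 to 15.0) and 5 of 28 mESC- windows (17.9%, 6.06 to 36.9), against 7.77% and 13.8% of all such peaks. Both shares near the genes have intervals that include the share of the whole list.

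The mESC- peak near Sox3 held a repeat spaced by 5 bases in 2 places, both without mismatch and both inside the peak. Of all 19875 mESC- peaks without a counterpart that were searched, 3.07% held an exact repeat of any of the 3 spacings. Of the 9 peaks of 1 list with a repeat, the 6 with the highest percentile are given with 15 bases on either side and the cores in capitals. They are shown because they match, in peaks called in only 1 of the 2 libraries, the kind of sequence that RA receptors are known to bind. Cores that read TGAACT lie on the minus strand.

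Sox3, mESC-, chrX:60851666-60851712: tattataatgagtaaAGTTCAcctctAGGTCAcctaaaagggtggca
Sox3, mESC-, chrX:60851728-60851774: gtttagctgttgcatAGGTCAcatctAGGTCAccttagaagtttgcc
Dnmt3a, mESC-, chr12:3990292-3990338: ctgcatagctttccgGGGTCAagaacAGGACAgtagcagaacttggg
Sox4, mESC-, chr13:28973698-28973741: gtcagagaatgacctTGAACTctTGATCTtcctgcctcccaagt
Dnmt3l, mESC-, chr10:78135800-78135842: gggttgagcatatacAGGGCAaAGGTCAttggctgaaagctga
Sox4, mESC+, chr13:28930606-28930649: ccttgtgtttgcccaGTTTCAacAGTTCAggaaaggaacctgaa
Dnmt3b, mESC+, chr2:153556770-153556812: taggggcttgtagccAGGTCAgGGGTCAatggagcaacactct

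The Sox3 and Dnmt3b repeats are exact and the others have 1 mismatch. The repeats of the Dnmt3a peak and of both mESC+ peaks lie outside the narrow peak itself, within the searched window.

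The binding words of the factors among the 9 genes were at background in most sets. The octamer (ATGCAAAT or ATGCTAAT), bound by POU factors, was in 5.10% of mESC+ and 5.86% of mESC- windows near the genes, against 4.69% and 4.91% of all. The OTX element (TAATCC) was in 8.63% and 8.11%, against 8.78% and 8.46%. The SOX element (CATTGT or CTTTGT) was in 30.2% and 35.1%, against 35.9% and 35.4%. Among mESC+ peaks without a counterpart it was in 11 of 65 windows near the genes (16.9%, 8.76 to 28.3), against 37.4% of all such peaks. The median GC content of these 65 windows was 52.3%, against 50% of all such windows, and its part in the difference was not tested.

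RefSeq (GRCm38.p6) promoter sequences of 300 bp were given for 6 of the 9 genes, and none for Pou3f1, Zic2 and Sox3. None of these promoters contained a receptor repeat, which 6.32% of all 32851 promoters do. The SOX element was found in 1 promoter each of Dnmt3l and Dnmt3a (28.6% of all promoters), and the OTX element in 1 promoter of Otx2 itself (7.06% of all).

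Further formative and primed genes and naive genes gave shares near those of the 9 genes. RA targets gave a lower mESC+ share and a higher mESC- share. Over 18 further formative and primed genes, among them Fgf5, Lef1, Zic5, Etv4 and Eomes, 26.8% of mESC+ peaks and 12.6% of mESC- peaks had no counterpart, and 8 of the 18 genes were in the RNA-seq table. The windows of Zic5 and Zic2 share peaks. Over 12 naive genes, such as Nanog, Klf4 and Nr0b1, the shares were 26.1% and 13.95%, with 6 of 12 listed. Over 11 known RA targets, such as Cyp26a1, Rarb and Dhrs3, the shares were 19.7% of mESC+ peaks and 21.8% (17.3 to 26.9) of mESC- peaks, with 10 of 11 listed. All 4 dynamic regions near the RA targets had the higher probability in mESC-, against 43.1% of all regions. The share of mESC- peaks without a counterpart was thus 12.6% (8.55 to 17.7) around the 9 formative and primed genes and 21.8% around the RA targets in the same libraries. This difference was not tested.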

How the data were processed

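Reads had been mapped to GRCm38 (mm10) by the authors, who name BWA-MEM, STAR 2.5.1b, SAMtools, MACS2 and DESeq2. MACS2 parameters and read totals are not given in the sources used here, so depth is unknown. For RNA-seq, the deposited table gives a mean normalized count, a signal over 6 libraries, and columns of the authors' own comparison (log2 fold change, its standard error, test statistic, p-value and adjusted p-value), which were not used, nor was the p-value of the enhancer list. Enhancer probabilities are deposited as a fraction, and each deposited ATAC-seq peak carries its fold enrichment with a −log10 p and a −log10 q. ChIP-seq of the remaining marks was not analysed here.

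Windows were gene bodies (GENCODE M21) with 100 kb on each side, and peaks were shared when overlapping by at least 1 bp. Mean counts were divided by merged exon length. Sequences came from GRCm38.p6. Members and lists were chosen with earlier results of these data known. A further gene of the RA target list is not reported here and was left out of its counts. All 9 genes are named, with their promoter peaks, their strongest and most different loci, peaks of 1 list at the 75th percentile or above, and state-only peaks with a receptor repeat (at most 6). The promoter sequences and the 2 sequences at the largest differences were chosen after the values were seen. Functions were tested on simulated data. The tools were pandas 2.3.3, NumPy 2.4.6, pysam 0.24.0, SciPy 1.17.1 and, for plots, matplotlib 3.10.9, under Python 3.11.15.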

Additional observations from a re-analysis of the deposited data

How the results depend on the processing

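No paired analysis was possible because ATAC-seq has 1 library per state and the RNA-seq table holds no values per library, so no replicate could be left out either. Of 34 alternatives over 11 results, 20 were counted as giving like values. That count is loose, since it includes 255 mESC+ peaks against 184 with a 50 kb window. It also includes 13 loci at least 30 points lower in mESC- against 18 by −log10 p. With a −log10 q of at least 10, 118 mESC+ and 87 mESC- peaks lay near the 9 genes, and 6.90% of the latter had no counterpart (9.38% over the list). With the 50000 strongest peaks of each list, 76 and 73 peaks remained, 15.8% of the mESC+ peaks had no counterpart (17.6% over the list), and 5 genes had a mESC+ and 6 a mESC- promoter peak. Requiring an overlap of at least 50% of each peak gave 40.8% and 32.0% without a counterpart, against 35.0% and 24.9% over the lists, so here the shares near the genes exceed their background. Setting strong peaks (−log10 q of at least 10) against every peak of the other list, chosen after seeing the data, left 2.54% and 1.15%, against 3.17% and 0.711%. The share of state-only peaks with a receptor repeat, 9.68%, was 4.30% within the whole peak and 2.15% with no mismatch. Ranked by −log10 p, 5 shared loci were at least 30 points higher in mESC- (3.16% of all shared loci), and the loci at least 30 points lower numbered 18 (7.93% of all).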
